A study of Mus musculus with 16 samples.

Results

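Type I interferons were read in mouse bone marrow-derived dendritic cells (BMDCs) through 5 genes, Ifnb1, Ifna1, Ifna2, Ifna4 and Ifna5, which were taken by name from a table of 23356 genes. Each gene had 1 row. Ifnb1 encodes IFN-β and the other 4 encode members of the IFN-α family. Type I interferons are secreted cytokines that cells make when sensors of foreign nucleic acids are engaged. All of them bind the same receptor, formed by IFNAR1 and IFNAR2, which acts through the kinases JAK1 and TYK2 to switch on interferon-stimulated genes. The cyclic dinucleotide c-di-GMP is a bacterial messenger that is bound by STING, the product of Tmem173, and STING in turn activates the kinase TBK1 and the transcription factor IRF3. IFN-β is the classical early product of IRF3, and most IFN-α genes are classically induced later through IRF7, which is itself an interferon-stimulated gene.

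The study compared BMDCs from wild-type C57BL/6 mice with cells from Tmem173-/-, Irf1-/- and Irf3/7-/- mice, kept untreated or stimulated with c-di-GMP at 25 ug/ml (the dose on the sample labels) for 18 h. The cells had been grown from bone marrow for 6 days with GM-CSF and IL-4 at 10 ng/ml each. The 16 listed samples are 2 for each of 8 conditions, and the deposited table gives each condition 1 expression value, an FPKM (a fragment count divided by transcript length and by sequencing depth), between a lower and an upper confidence bound. Both samples of a condition are combined in it, so there is no spread between cultures, and the difference between conditions was judged from the intervals alone. The knockouts are whole-animal deletions, so every cell of a culture carries them, and such cultures are mixed. Fewer cells of a type and less RNA per cell cannot be told apart in RNA from a whole culture.

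A gene was tested where it had at least 1 FPKM in either condition compared, and called higher or lower where it differed by more than 2-fold on the log2(FPKM + 0.1) scale and the intervals lay apart. This yields calls and no p-values. The width of an interval comes from counting error together with the variation modelled by Cuffdiff. An interval of a gene listed at 0 runs from 0 to 0 and carries no error.

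The 5 genes lie on chromosome 4 within a cluster of 15 type I interferon rows that spans 358177 bases. Each has 1 annotated transcript with 1 exon and no intron. In build GRCm38, Ifnb1 is at chr4:88522025-88522794 on the minus strand and Ifna2 at chr4:88683207-88683779 on the minus strand. On the plus strand lie Ifna5 at chr4:88835525-88836094, Ifna4 at chr4:88841816-88842459 and Ifna1 at chr4:88850087-88850656.

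The 250 bases before the start of Ifnb1 (chr4:88522795-88523044, minus strand) and of Ifna4 (chr4:88841566-88841815, plus strand) are shown because these genes moved apart between the knockouts. They were read from the RefSeq promoter table of build GRCm38.p6, which held all 5 genes. Capitals mark the matches to the motifs given in the next paragraph.
Ifnb1: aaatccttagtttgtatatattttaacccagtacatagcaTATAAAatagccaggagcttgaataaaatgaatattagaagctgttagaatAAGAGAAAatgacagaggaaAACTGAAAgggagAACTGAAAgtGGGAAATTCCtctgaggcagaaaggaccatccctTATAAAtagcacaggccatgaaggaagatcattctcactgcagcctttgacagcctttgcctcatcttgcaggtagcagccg
Ifna4: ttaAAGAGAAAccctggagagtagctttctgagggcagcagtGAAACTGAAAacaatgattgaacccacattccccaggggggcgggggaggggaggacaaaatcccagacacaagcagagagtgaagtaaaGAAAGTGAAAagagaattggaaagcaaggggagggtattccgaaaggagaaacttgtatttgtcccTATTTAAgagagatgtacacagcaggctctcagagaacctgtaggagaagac

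Motifs were searched on both strands in the 300 bases from 250 before to 50 after each start. The tandem repeat of GAAA, any 2 bases and GAAA again, the core of an interferon-stimulated response element, was found in the 4 IFN-α promoters and not in that of Ifnb1. It occurred in 3.44% of all 32851 promoters in the table. Ifna4 holds it with its first base at -208 and -118 counted from the start, Ifna2 at -239 and -164, and Ifna1 and Ifna5 each at -165. The annotated start of Ifna1, Ifna2 and Ifna5 is the ATG of the coding sequence. Those of Ifna4 and Ifnb1 lie before the ATG, at unlike distances. Positions are therefore counted from a like point in Ifna1, Ifna2 and Ifna5 only. They cannot be compared with those of Ifna4 or Ifnb1, nor between these 2. The site spelled GGGAA and then ATTCC, which NF-kB is known to bind, was found in Ifnb1 alone of the 5, at -116, and in 0.110% of all promoters. The shorter string AANNGAAA, which also matches inside the tandem repeat, was added after the sequences were seen. It was present in all 5 promoters, at -159, -139 and -126 in Ifnb1, and in 23.9% of all promoters. TATAAA was found in Ifnb1 only, at -210 and -82 (13.6% of all promoters), and TATTTAA, also added after the sequences were seen, in the 4 IFN-α promoters (4.51% of all promoters). A match describes letters and not bound factors.

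The 2 kinds of gene also differ in how far their reads can be assigned. The libraries were read from both ends of each fragment, 35 bases per read. The shares below are of single 35-base stretches. A fragment can be assigned where either of its reads can, so they are not shares of fragments, which were not computed. No 35-base stretch of the Ifnb1 transcript occurs in a transcript of another gene. Of those of Ifna4, 12.3% occur elsewhere, of Ifna2 18.3%, of Ifna5 70.0% and of Ifna1 84.7%. The Ifna2 share was taken over an annotated transcript of 1032 bases, although the counted row spans 573. It is thus not on the same footing as the others, and the share over the counted row was not computed. Ifna1 and Ifna5 are identical at 94.0% of aligned transcript bases, and Ifna4 matches the other IFN-α genes here at 87.7% to 90.3%. The levels of Ifna1 and Ifna5 are therefore uncertain, since the sources used here do not say how the authors' counting split shared reads.

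The targeted genes were read first as a check of the labels. Tmem173 was at 103 FPKM in untreated and 118 FPKM in treated wild-type cells, and at 8.97 and 7.49 FPKM in Tmem173-/- cells. Irf1 was at 149 and 245 FPKM in wild-type cells and at 25.9 and 116 FPKM in Irf1-/- cells, lower in both states but not absent. It was also low in Tmem173-/- cells, at 24.1 and 23.3 FPKM, so its level does not single out the cells labelled Irf1-/-. Irf7 was at 15.2 and 687 FPKM in wild-type cells and at 1.07 and 4.97 FPKM in cells labelled Irf3/7-/-. Irf3 did not follow the label in the treated cells. It was at 7.74 FPKM (interval 5.55 to 9.96) in untreated cells labelled Irf3/7-/- against 19.9 FPKM (15.4 to 24.5) in wild-type cells, but at 20.2 FPKM (14.8 to 25.7) after c-di-GMP against 15.8 FPKM, and these intervals overlapped. Whether the counted reads lie in the deleted part of a gene was not tested. Below, Irf3/7-/- stands for the label of that condition.

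Ifnb1 was the most abundant of the 5 genes in treated cells labelled Irf3/7-/- and was barely detected in any untreated culture. It was listed at 0 in untreated wild-type, Tmem173-/- and Irf3/7-/- cells and at 0.0258 FPKM (interval 0 to 0.103) in untreated Irf1-/- cells. After c-di-GMP it stood at 2.93 FPKM (1.76 to 4.08) in wild-type cells, at 3.53 FPKM (2.17 to 4.85) in Irf1-/- cells, at 22.6 FPKM (15.8 to 29.3) in cells labelled Irf3/7-/- and at 0.0474 FPKM (0 to 0.0516) in Tmem173-/- cells. The order was thus Irf3/7-/- above Irf1-/- and wild type, whose intervals overlapped each other, and these above Tmem173-/- and every untreated condition, whose values lay at or near 0.

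Ifna4, the only IFN-α gene of the 5 to reach 1 FPKM, had another order. It was listed at 0 in untreated wild-type, Tmem173-/- and Irf1-/- cells and in treated Tmem173-/- cells. After c-di-GMP it stood at 3.53 FPKM (1.91 to 5.06) in wild-type cells and at 9.37 FPKM (5.74 to 11.8) in Irf1-/- cells. In cells labelled Irf3/7-/- it was at 0.0423 FPKM (0 to 0.123) untreated and at 0.0484 FPKM (0 to 0.123) treated, so both intervals included 0. Treated Irf1-/- cells were highest, treated wild-type cells next, and the other 6 conditions could not be told apart.

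Ifna1, Ifna2 and Ifna5 were low throughout and entered no test. Each was above 0 in 2 conditions only, treated wild-type and treated Irf1-/- cells, and listed at 0 in the other 6. Ifna1 was at 0.172 FPKM (0 to 0.349) in treated wild-type and at 0.424 FPKM (0.0698 to 0.767) in treated Irf1-/- cells. Ifna5 was at 0.106 FPKM (0 to 0.209) and 0.488 FPKM (0.140 to 0.837). Ifna2 was at 0.249 FPKM (0 to 0.486) and 0.155 FPKM (0 to 0.278). In each of the 3 the wild-type and Irf1-/- intervals overlapped, and only the Irf1-/- intervals of Ifna1 and Ifna5 stayed above 0.

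**Figure D1:**
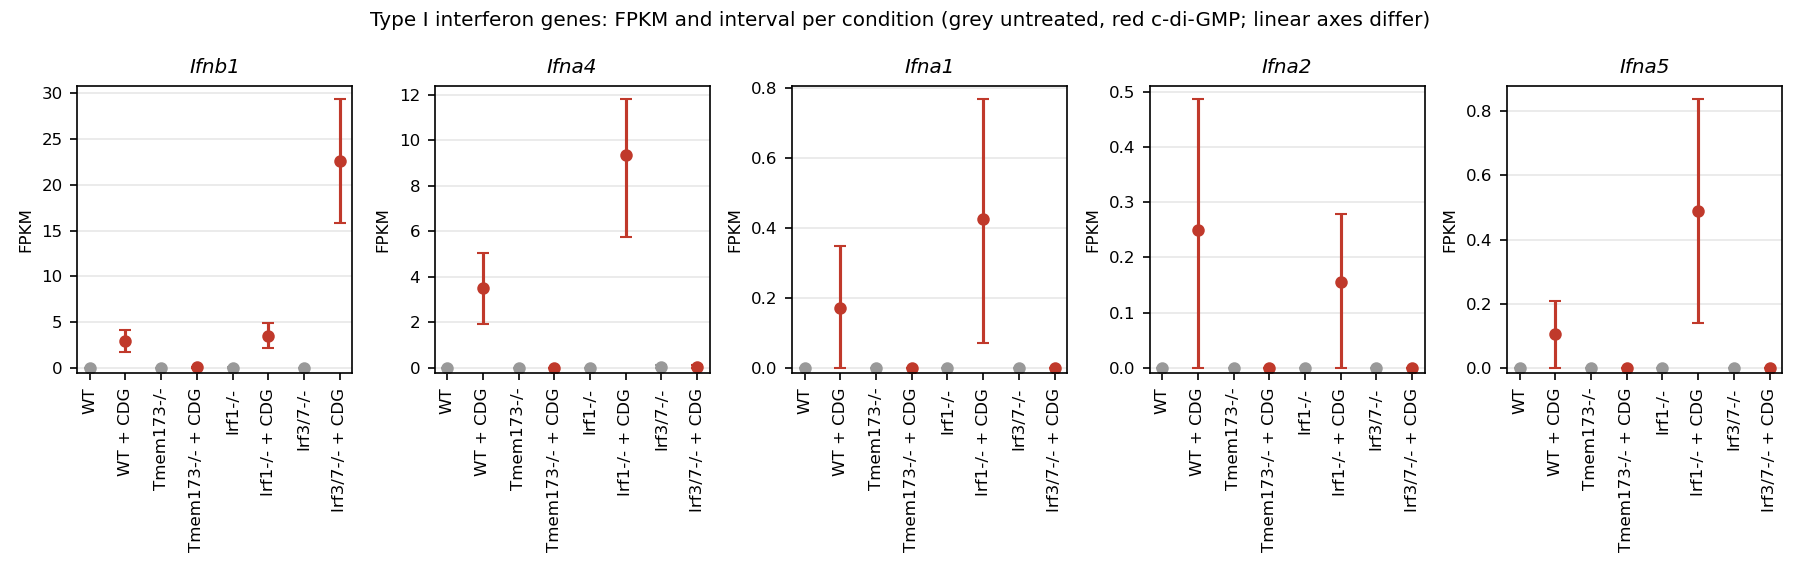
FPKM of the 5 type I interferon genes in the 8 conditions, 1 panel per gene with its own linear axis. Points are the authors' pooled values, grey untreated and red after c-di-GMP (CDG), and bars the interval. Ifnb1 is highest in treated cells labelled Irf3/7-/- at 22.6 FPKM, while Ifna4 is highest in treated Irf1-/- cells at 9.37 FPKM and near 0 in Irf3/7-/- cells.

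The precision behind these levels could be read from the interval bounds. For each gene they were whole multiples, within 0.01, of a step that was inversely proportional to transcript length and corresponded to 1 fragment at a scale common to all conditions. The same held for 462 of 462 bounds, within 0.05, in 98 other intronless genes for multiples up to 30. On this scale the Ifnb1 values of treated wild-type, Irf1-/- and Irf3/7-/- cells stood for 56.8, 68.3 and 438 fragments, and that of treated Tmem173-/- cells for 0.918. Those of Ifna4 stood for 57.1, 152 and 0.784 fragments in treated wild-type, Irf1-/- and Irf3/7-/- cells. Ifna1, Ifna2 and Ifna5 rested on between 1.52 and 7.00 fragments where they were above 0. The scale is shared by all conditions and is not the depth of a library, which is unknown.

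The 11 other type I interferon rows of the table, 8 IFN-α genes or relatives and the genes Ifne, Ifnk and Ifnz, were lower still. Their highest value was 0.105 FPKM, for Ifna9 in treated Irf1-/- cells, and no lower bound was above 0. Of the 11, 3 were above 0 in treated wild-type cells and 6 in treated Irf1-/- cells. Ifna4 made up 83.9% of the summed FPKM of the 4 IFN-α genes and their 8 relatives in treated wild-type cells and 86.8% in treated Irf1-/- cells. Of the type III interferons, Ifnl2 was listed at 0 everywhere and Ifnl3 reached no more than 0.0513 FPKM.

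In wild-type BMDCs, the comparison of c-di-GMP with no treatment asks which interferon genes the stimulus engages. Ifnb1 and Ifna4 were above 1 FPKM after c-di-GMP and listed at 0 without it, so no fold is given. In Irf1-/- cells both were again above 1 FPKM only after c-di-GMP, and in cells labelled Irf3/7-/- Ifnb1 alone was. All of these met the rule for a call. With untreated values at or near 0, however, a gene well above 1 FPKM in the treated cells could hardly fail it. The calls therefore describe the levels and add nothing to them. Of all genes tested, 10.5% of 11201 were called higher in wild-type cells, 9.67% of 11164 in Irf1-/- cells and 10.2% of 11283 in cells labelled Irf3/7-/-, and nothing is read from the interferon genes against these shares. In Tmem173-/- cells no type I interferon gene reached the level for a test, and 0.0552% of 10867 genes were called in either direction.

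The treated knockouts were each set against the same treated wild-type cells, so these comparisons share a control. In Tmem173-/- cells Ifnb1 and Ifna4 were at or near 0. Both met the rule for a lower call, as 13.5% of 11318 genes did. They entered through the wild-type level alone, however, and with the knockout at or near 0 could hardly fail it. The ratio of wild-type to Tmem173-/- FPKM was 61.8 for Ifnb1, and the nearest bounds of the intervals were 34-fold apart. It has no upper limit, because the Tmem173-/- interval reached 0. Ifna4 was listed at 0 in the knockout.

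In treated Irf1-/- cells only Ifna4 met the rule for a call. Ifna4 was called higher than in wild-type cells, at 2.66 times the FPKM with interval bounds that allow 1.13 to 6.16 times, where 2.65% of 11079 genes were called higher. Ifnb1 was at 1.20 times the wild-type FPKM and was not called. Its bounds allow ratios from 0.532 to 2.76, a range that includes both equal levels and a 2-fold difference. The ranges of the 2 genes overlap, and a difference between them was not tested. The summed FPKM of the 5 genes was 6.99 in treated wild-type and 14.0 in treated Irf1-/- cells.

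In treated cells labelled Irf3/7-/- the 2 genes went in opposite directions. Ifnb1 was called higher than in wild-type cells, at 7.70 times the FPKM with bounds that allow 3.87 to 16.7 times, where 4.61% of 11209 genes were called higher. Ifna4 was called lower, where 2.69% were, having entered through the wild-type level alone. The wild-type FPKM of Ifna4 was 72.9 times that of the knockout, with nearest bounds 15.5-fold apart and no upper limit. Since Irf3 was not lower in this treated condition, both directions are those of the labelled condition, in which Irf7 was at 4.97 FPKM against 687 FPKM.

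Set directly against treated Irf1-/- cells, the treated cells labelled Irf3/7-/- differed in both genes in the same way. Ifnb1 was called higher, at 6.40 times the FPKM with bounds that allow 3.26 to 13.5 times, where 6.62% of 11235 genes were called higher. Ifna4, which entered through the Irf1-/- level alone, was called lower, where 3.22% were, with the Irf1-/- value 194 times the other and nearest bounds 46.5-fold apart. No type I interferon gene was tested between untreated knockout and untreated wild-type cells.

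**Figure D2:**
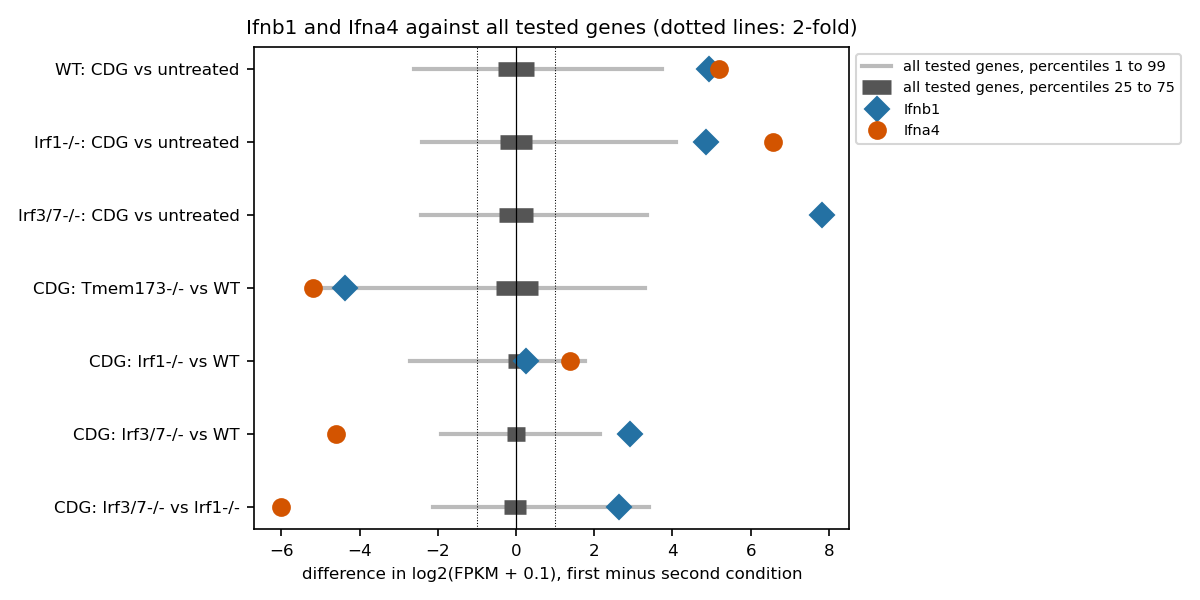
Differences in log2(FPKM + 0.1) of Ifnb1 (diamonds) and Ifna4 (circles) in 7 comparisons, beside all genes tested (thin bars percentiles 1 to 99, thick bars percentiles 25 to 75). Where a condition is listed at 0 the position depends on the 0.1 FPKM added. The genes lie together in wild-type cells and on opposite sides of 0 in treated cells labelled Irf3/7-/- against wild-type or Irf1-/- cells.

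The balance of the 2 genes within a condition, which needs no other condition as reference, shows the same split. Both values are FPKM and so are scaled to transcript length. In treated wild-type cells Ifna4 was at 1.20 times Ifnb1, and the interval bounds allow 0.469 to 2.88 times. In treated Irf1-/- cells it was at 2.66 times Ifnb1, with bounds of 1.18 to 5.44 times. In treated cells labelled Irf3/7-/- Ifnb1 was at 467 times Ifna4, with nearest bounds 128-fold apart. The wild-type and Irf1-/- ranges overlapped each other and neither met the Irf3/7-/- range.

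The genes whose pattern was most like that of Ifnb1 and Ifna4 were found by Pearson's r of log2(FPKM + 0.1) over the 8 conditions, among 11810 other genes. For Ifnb1 they were Zhx2 (r = 0.992), Mcf2l (0.992), Ocln (0.989), Spata6 (0.989) and Zfand5 (0.987). All 5 had their highest FPKM in treated cells labelled Irf3/7-/-, which choosing them by r makes likely. Zhx2, for example, stood at 7.05 FPKM there, 4.36 in treated wild-type and 3.92 in treated Irf1-/- cells. For Ifna4 they were Il9 (0.990), Tnn (0.989), Zfp213 (0.987), Eif2b2 (0.987) and Hps1 (0.985), of which Tnn was at 5.19 FPKM in treated Irf1-/- cells, 1.64 in treated wild-type and 0.00445 in treated cells labelled Irf3/7-/-. Between Ifnb1 and Ifna4 themselves r was 0.578, which placed Ifna4 at rank 3367 among the genes most like Ifnb1. With 8 points that share their conditions, several of them near 0, r describes shape only.

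**Figure D3:**
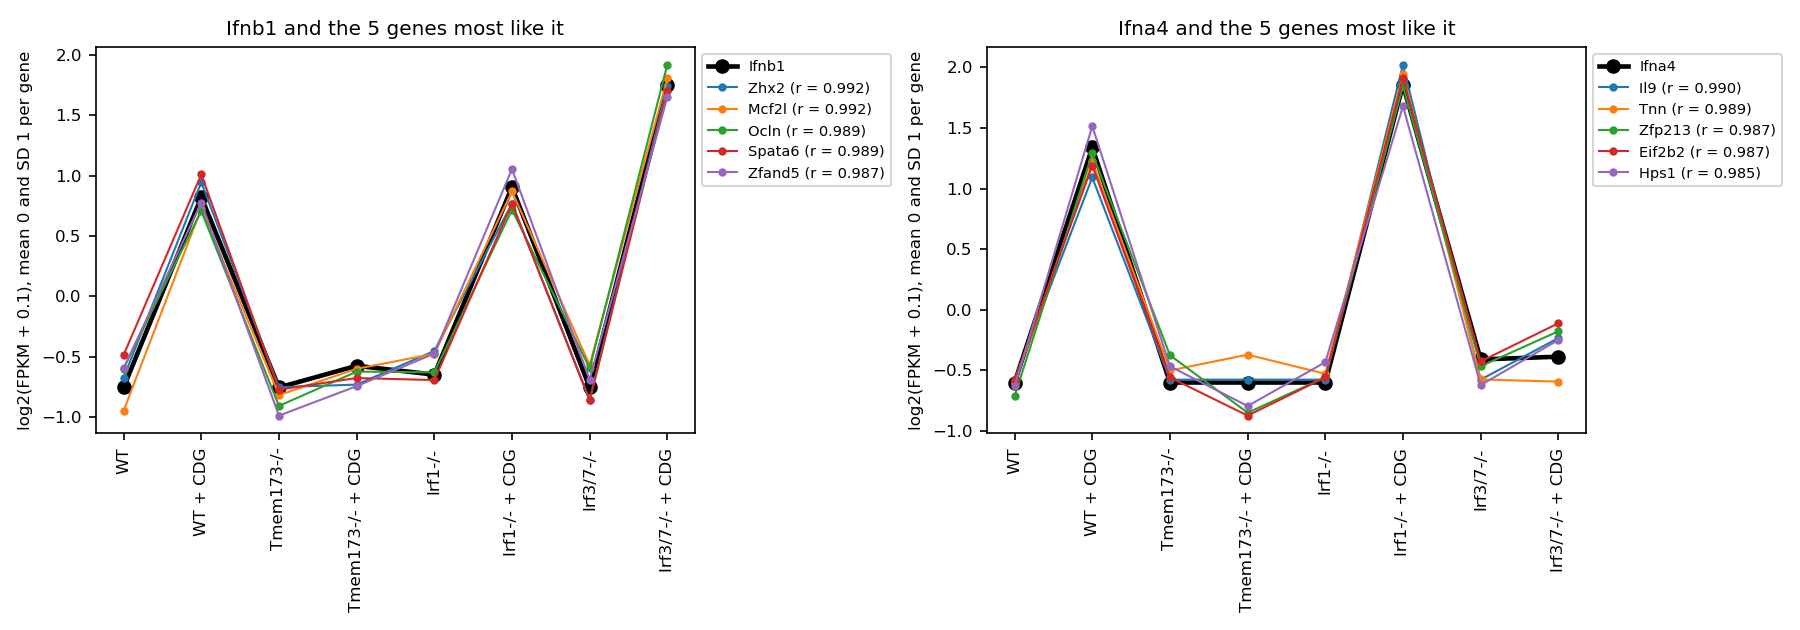
Profiles over the 8 conditions of Ifnb1 (left) and Ifna4 (right), in black, with the 5 genes most like each. The vertical axis is log2(FPKM + 0.1), set to mean 0 and SD 1 for each gene. The Ifnb1 group peaks in treated cells labelled Irf3/7-/- and the Ifna4 group in treated Irf1-/- cells, where Ifnb1 stood at 3.53 FPKM. The genes were chosen by likeness, which makes a shared peak likely.

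Genes that act between the sensor and the interferon promoter were followed as a list of 21, with STING, the RNA sensors, adaptors, kinases, IRFs and NF-kB subunits. In wild-type cells 5 of the 21 were called higher with c-di-GMP, with a median log2 difference of 0.46 over the list. They were Irf7 (log2 difference 5.49), the RNA sensors Ifih1 (3.20) and Ddx58 (2.10), Irf8 (2.44) and the kinase Tbk1 (1.14). In Irf1-/- cells 6 of the 21 were called higher, again with Irf7 first, from 6.22 to 969 FPKM. In cells labelled Irf3/7-/- 6 of the 21 were called higher too, the largest of them Ifih1 (2.90), Ddx58 (2.53), Irf8 (2.21), Irf7 (2.11) and Irf3 (1.37), so both targeted genes were called higher there. In Tmem173-/- cells 0 of 21 were called. Of all genes tested, 10.5% were called higher in wild-type, 9.67% in Irf1-/- and 10.2% in Irf3/7-/- cells. In Tmem173-/- cells 0.0552% were called in either direction.

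Between treated conditions, the factors known to induce interferon genes were compared within the same list. In Irf1-/- cells against wild-type cells only Irf1, the targeted gene, was called, lower, where 4.91% of all genes tested were called lower. Irf7 was at 969 FPKM (698 to 1241) against 687 FPKM (504 to 871), with overlapping intervals. In cells labelled Irf3/7-/- only Irf7 was called, lower, with a log2 difference of -7.08, where 2.69% of all genes tested were called lower. Irf1 stood there at 262 FPKM (187 to 338), and its interval overlapped the wild-type one (245 FPKM, 176 to 314). In the same cells Nfkb1 and Rela, which encode NF-kB subunits, were at 144 and 52.9 FPKM against 175 and 55.8 FPKM. Treated Tmem173-/- cells had 9 of 21 lower, led by Irf7, at 3.37 FPKM, where 13.5% of all genes tested were called lower.

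The receptor and its signalling were represented by 9 genes, all above 5 FPKM in every condition. With c-di-GMP, 4 of 9 were called higher in wild-type cells (Usp18, Socs3, Stat2 and Ifnar2), 4 in Irf1-/- cells and 3 in cells labelled Irf3/7-/-. Of all genes tested, 10.5%, 9.67% and 10.2% were called higher in these cells. Usp18, a negative regulator of the receptor that interferon induces, rose from 42.3 to 404 FPKM in wild-type cells, from 24.9 to 484 FPKM in Irf1-/- cells and from 23.6 to 236 FPKM in cells labelled Irf3/7-/-. None of the 9 was called between either of these treated knockouts and treated wild-type cells. Ifnar1 lay between 13.2 and 21.4 FPKM and Jak1 between 41.3 and 58.3 FPKM over all 8 conditions.

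The genes downstream of the receptor were followed in 20 interferon-stimulated genes. With c-di-GMP, 20 of 20 were called higher in wild-type, Irf1-/- and Irf3/7-/- cells alike, with median log2 differences of 5.02, 5.94 and 4.73. The median over all genes tested stayed within 0.043 of 0, and 10.5%, 9.67% and 10.2% of them were called higher. This list, like the others, was chosen with earlier results of these data known, so its counts describe the listed genes only. In Tmem173-/- cells 0 of the 14 tested were called. The largest rise in wild-type cells was that of Rsad2, which encodes viperin, from 3.99 to 1245 FPKM. The lower end of the list in treated cells was Oas2, at 23.9 FPKM in wild-type, 15.3 in Irf1-/- and 15.6 in Irf3/7-/- cells.

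The level of these genes did not order the treated conditions as either interferon gene did. Their median was 230 FPKM in treated wild-type, 180 in Irf1-/- and 171 in Irf3/7-/- cells, and 1.61 in treated Tmem173-/- cells. Against treated wild-type cells 5 of 20 were called lower in Irf1-/- cells (Cmpk2, Rsad2, Ifi44, Cxcl10 and Isg20), with a median log2 difference of -0.36, where 4.91% of all genes were called lower. In cells labelled Irf3/7-/-, where Ifnb1 was highest, 5 of 20 were called lower (Oasl1, Cxcl10, Ifi44, Rsad2 and Cmpk2) and none higher. The median was -0.77, and 2.69% of all genes were called lower. A fold threshold of 1.5 made the Irf3/7-/- count 10 of 20 and a threshold of 4 made both counts 0. The untreated cultures differed before any stimulus, with 16 of 20 lower in Tmem173-/-, 14 in Irf1-/- and 10 in Irf3/7-/- cells than in wild-type cells, where 5.95%, 3.52% and 0.863% of all genes tested were lower, although type I interferon genes were at or near 0 in all of them.

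**Figure D4:**
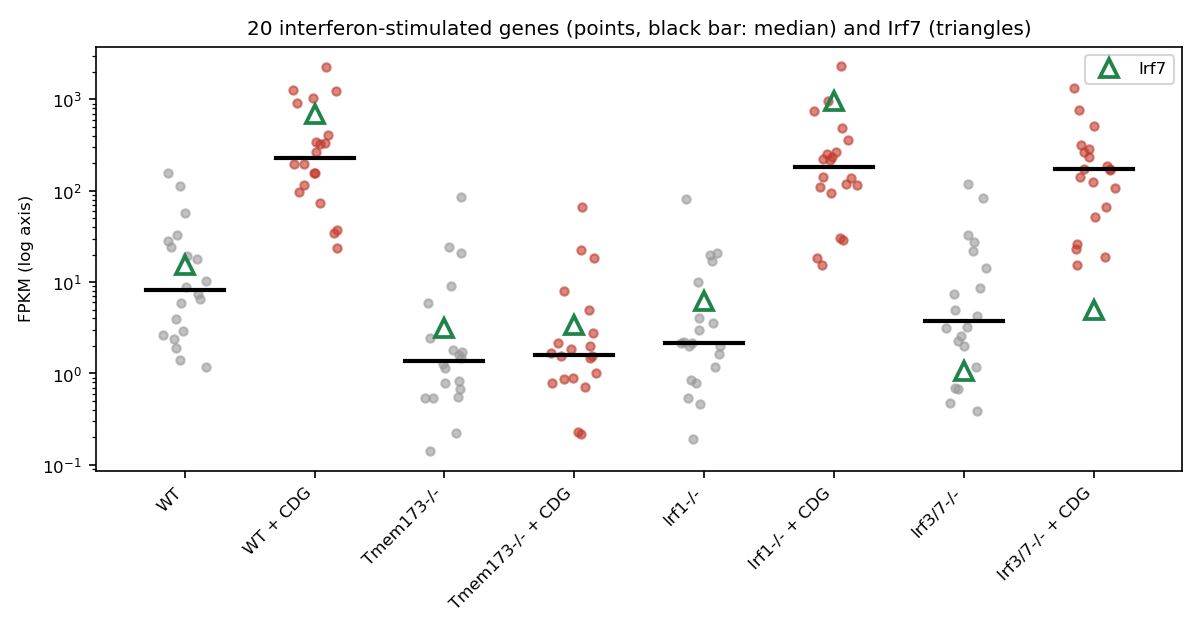
FPKM on a log axis of 20 interferon-stimulated genes in the 8 conditions (points, spread sideways for legibility) with their median (black bar) and Irf7 (triangles). Treated wild-type, Irf1-/- and Irf3/7-/- cells have medians of 230, 180 and 171 FPKM, while Irf7 stands at 687, 969 and 4.97 FPKM.

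IFN-γ, the type II interferon, uses a different receptor but induces many of the same genes. Ifng was above every type I gene in 6 of 8 conditions, at 34.6 FPKM in untreated and 299 FPKM in treated wild-type cells, 1.26 and 25.5 FPKM in Irf1-/- cells, and 44.0 and 1155 FPKM in cells labelled Irf3/7-/-. It was listed at 0 in both Tmem173-/- conditions. Ifng was called lower in treated Irf1-/- cells and higher in treated cells labelled Irf3/7-/- than in treated wild-type cells. IFN-γ is classically a product of NK and T cells.

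Transcripts of such cells were present and moved with some of the results. The summed FPKM of 5 T cell markers was 57.5 in untreated and 39.9 in treated wild-type cells, 4.50 and 3.56 in Irf1-/- cells, 80.6 and 143 in cells labelled Irf3/7-/-, and 0.974 and 0.854 in Tmem173-/- cells. Cd4 stayed at or below 0.154 FPKM everywhere. The sum of 6 NK cell markers, most of it from Gzma where that gene was detected, was 363 and 336 in wild-type, 6.99 and 9.11 in Irf1-/-, 336 and 921 in Irf3/7-/- and 0.0763 and 0.0773 in Tmem173-/- cells. Ncr1 and Klra8 were at 0 in Irf1-/- cells. The sum did not follow every marker. With c-di-GMP Eomes fell from 8.02 to 2.24 FPKM in wild-type cells and Klrb1c from 1.35 to 0.151, while Prf1 was at 4.27 and 4.30. In cells labelled Irf3/7-/- Eomes fell from 13.6 to 6.36 and Klrb1c from 4.05 to 0.618. Prf1 rose there with Gzma, from 3.11 to 13.1. Of 4 tested there, 2 were called higher (10.2% of all genes tested) and 2 lower (7.68%). Among treated cells, those labelled Irf3/7-/- thus had the highest T and NK cell sums and the highest Ifnb1, and Irf1-/- cells, with far lower sums than wild-type cells, had Ifnb1 at 3.53 against 2.93 FPKM.

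Markers of other cells also differed where Ifnb1 or Ifna4 did. The sum of 6 basophil and mast cell markers was 165 and 255 FPKM in cells labelled Irf3/7-/- and between 54.2 and 90.5 FPKM elsewhere. Of 5 neutrophil markers the sum was 1316 and 1045 FPKM in Tmem173-/- cells and between 70.9 and 157 FPKM elsewhere. Of 6 macrophage markers it was 453 and 432 FPKM in Tmem173-/- cells and between 157 and 274 FPKM elsewhere, with 274 in treated wild-type and 169 in treated Irf1-/- cells. Of 5 B cell markers it was 10.7 and 8.40 FPKM in Tmem173-/- cells and between 3.34 and 6.75 FPKM elsewhere. The part of RNA from any of these cell types in the interferon results was not tested. Plasmacytoid dendritic cells are known for large amounts of IFN-α. Of 10 of their markers, 5 to 7 reached 1 FPKM in a condition, and their sum was 228 and 1577 FPKM in wild-type, 116 and 1183 in Irf1-/-, 204 and 1112 in Irf3/7-/- and 121 and 106 in Tmem173-/- cells, most of it from Bst2 and Irf8. Bst2 is also one of the 20 interferon-stimulated genes above. In treated Irf1-/- cells, where Ifna4 was highest, Tcf4 was at 8.53, Tlr9 at 4.84, Spib at 1.96 and Cox6a2 at 1.45 FPKM. Treated wild-type cells had these at 7.91, 11.2, 0.792 and 1.01 FPKM. Treated cells labelled Irf3/7-/-, where Ifna4 was near 0, had them at 9.65, 6.37, 3.56 and 3.09 FPKM. In treated Irf1-/- cells Ccr9 was at 0.692, Ly6d at 0.330 and Klk1 at 0.0305 FPKM. In treated cells labelled Irf3/7-/- these were at 0.357, 2.80 and 0.223 FPKM. Siglech was at 0 in treated Irf1-/- cells, as it was in untreated Irf1-/- and wild-type cells. It was at 0.0448 FPKM in treated cells labelled Irf3/7-/-. The part of plasmacytoid dendritic cells in the result was not tested either. All 8 markers of dendritic cells, such as Cd74 and Itgax, reached 1 FPKM in all 8 conditions, with sums from 4619 to 7500 FPKM.

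The genes beside the interferon cluster were read to see whether the region as a whole moved. Of 22 neighbouring rows, 16 of them inside the cluster, 4 were expressed enough to be tested. Klhl9, which lies inside the cluster between Ifnb1 and Ifna4, was between 16.7 and 20.7 FPKM in the 8 conditions and was called in no comparison. Of the 3 outside it, Focad and Ptplad2 were called higher with c-di-GMP in cells labelled Irf3/7-/- (5.98 to 12.1 and 2.58 to 5.34 FPKM). Mtap was called lower there (26.8 to 12.9 FPKM). In that comparison 10.2% of all genes tested were called higher and 7.68% lower. None of the 3 was called with c-di-GMP in wild-type or Irf1-/- cells. Against treated wild-type cells only Focad was called in the treated cells labelled Irf3/7-/-, at 12.1 against 4.93 FPKM. In treated Irf1-/- cells Focad was at 1.61 FPKM and called lower than in wild-type cells, as it was in untreated Irf1-/- cells, at 1.93 against 5.46 FPKM, and in Tmem173-/- cells in both states. Ptplad2 was called higher in untreated Tmem173-/- cells, at 7.55 against 2.51 FPKM.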

How the data were processed

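RNA-seq was carried out on BMDCs of 4 genotypes in 16 listed samples, 2 per condition. The authors ran Cuffdiff (version 1.06 in their processing notes) and deposited, for every gene and condition, an FPKM with lower and upper confidence bounds and a status flag. Replicates were combined by the authors. The notes name build mm9, yet the positions of the 5 genes equal those of GRCm38, which is used here. Libraries were stranded, and the paper states an opposing-strand setting for its SeqMonk pipeline. For the Cuffdiff run neither aligner nor strand setting is given in the sources used here. A set of 4 columns of a knockout with no listed sample was not used.

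The dose given is that of the labels, and the legend of the paper gives a higher one. Columns were matched to conditions by name. Log2 values were taken after adding 0.1 FPKM, and calls needed more than 2-fold, intervals that did not overlap, at least 1 FPKM in either condition and the status OK in both, in 11 comparisons. No test over replicates was possible. All 5 genes are described in every condition. The targeted genes are given throughout, and of the other lists the called genes, at most 5 per list and comparison by size, with the 5 genes most alike in pattern. Klhl9 and the other neighbours were chosen by position, and members named only for a level (Nfkb1, Rela, Jak1, Ifnar1 and cell markers) after their values were seen. The genes and lists were chosen with earlier results of these data known. A gene of the receptor list is not reported here. Simulated data were used to test the calls. Other settings tried were 1 or 0.01 FPKM as pseudocount, no minimum or 5 FPKM, a fold of 1.5 or 4, median centring, the fold alone, and a z from the intervals with a Benjamini-Hochberg q under 0.05. The scripts ran in python 3.11.15 with pandas 2.3.3, numpy 2.4.6 and matplotlib 3.10.9, and the annotation was GENCODE M21.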

Additional observations from a re-analysis of the deposited data

How the results depend on the processing

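Of 99 counts of type I interferon genes called (11 comparisons under 9 alternatives), 92 stayed as reported and 7 moved. A reversal of direction could not be tested, because pseudocount, minimum, fold and interval settings cannot change the sign of a difference. A minimum of 5 FPKM removed genes from the test and left 0 of the 2 calls with c-di-GMP in wild-type cells, 0 of the 2 in treated Tmem173-/- against wild-type cells, 1 (Ifna4) with c-di-GMP in Irf1-/- cells and 1 (Ifnb1) in treated Irf3/7-/- against wild-type cells. With no minimum the counts became 4 with c-di-GMP in Irf1-/- cells and 4 between treated Irf3/7-/- and Irf1-/- cells, since Ifna1 and Ifna5 entered. A fold threshold of 4 left 0 calls in treated Irf1-/- against wild-type cells. Median centring shifted values by at most 0.058 on the log2 scale, too little to reverse a difference of more than 2-fold. Of 297 counts of the other lists, 21 moved by the same rule, and the rest were not all unchanged in number. No paired analysis was possible because the deposited values combine the replicates of each condition, and for the same reason no replicate could be left out. The fragments behind Ifna1, Ifna2 and Ifna5, at most 7.00, limit what can be said of them.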
